A study of Mus musculus with 16 samples.

Results

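The circadian clock genes Per1, Per2, Per3, Cry1, Cry2, Clock, Nr1d1 and Nr1d2, with the rhythmic outputs Dbp and Usp2, were followed in cultured primary mouse hepatocytes. They were chosen by gene symbol, through all array probes annotated to one of these names, which gave 18 probes for 10 genes. A gene counted as measured where a probe had a detection p-value under 0.01 on at least 2 arrays. This held for 8 of the 10 genes, of 7746 genes measured in all. The probes of Per3 and Cry1 (1 each) were not above background on any array, so their levels are not reported. The hepatocytes came from C57BL/6 mice aged 6 to 8 weeks and carried an adenovirus, either one with shRNA against Hdac4 and Hdac5 (called shHDAC45 here) or a control virus. Titles call the control GFP, which is used here, and the series design calls it shGFP. Cells were then given forskolin, which drives cells to make cAMP by switching on adenylyl cyclase, or DMSO alone, and were collected after 2 h or 4 h. The 8 groups had 2 arrays each, 16 in all, and an array is called A or B after its deposited column. No label states that the 2 arrays of a group were separate cultures. The p-values therefore describe array-to-array spread, possibly technical only. No viral dose, time after infection or time of day of the cultures is given in the sources used here.

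The mammalian clock is a transcriptional loop. The proteins of Clock and Arntl (also called Bmal1) bind E-boxes and switch on the Per and Cry genes, whose proteins then return to repress them. Nr1d1 and Nr1d2 encode the receptors REV-ERB alpha and beta, which repress Arntl, while ROR receptors activate it through the same elements. Dbp, a PAR bZIP transcription factor, is a direct output read through D-boxes. Usp2 encodes a ubiquitin-specific protease whose transcript cycles in liver. Per1 and Per2 are also known as immediate targets of cAMP and CREB, by which glucagon can reach the liver clock.

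All values below are normalized log2 signals unless called otherwise, and a difference is in log2 units with its standard error (SE). Tests are limma's moderated two-sided tests over all 7746 genes, with Benjamini-Hochberg adjustment, and a gene rose or fell only where adjusted p was under 0.05. The number of arrays, 2 a group, limits the precision of each value. Across the series, 8455 to 10082 probes were detected per array, arrays of one group correlated at r = 0.992 to 0.994, and 16 of 16 arrays correlated best with the other array of their own group. The targeted genes were lower with the shRNA virus. Hdac5 lay between 5.72 and 6.73 in the 8 shHDAC45 arrays and between 9.02 and 10.35 in the 8 GFP arrays. Hdac4 lay between 5.74 and 6.99 in shHDAC45 arrays and between 7.40 and 8.66 in GFP arrays. Of the 8 shHDAC45 arrays only 3 were above background for Hdac5 and 4 for Hdac4, and all 8 GFP arrays were for each. The lower ranges are thus partly background signal. Of 10 hepatocyte markers, 6 were measured, and Alb, Tat, Cyp2e1 and Fgb were not above background on any array. The summed linear signal of the 6 ran from 6119 to 12560 in shHDAC45 arrays and from 21470 to 38750 in GFP arrays. These are bulk cultures, in which fewer cells of a type and less RNA per cell cannot be told apart.

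Promoter stretches are shown because Per1, Usp2 and Cry2 are the genes that rose with forskolin at 2 h in GFP cells, and because Per1 has 2 annotated starts. They come from RefSeq on GRCm38.p6, 5′ to 3′ along the gene, from 250 bases before to 20 bases after the start. Capitals mark matches to searched motifs on either strand. These are TGACG, the core of the cAMP response element, which reads CGTCA on the other strand. They include its longer variant TGACGTCG as well. The E-box of the clock, CACGTG, is marked in the same way. So is the related E-prime box, CACGTT, which appears as its reverse complement where it lies on the other strand.
Per1, first start (chr11:69098699-69098968, plus strand): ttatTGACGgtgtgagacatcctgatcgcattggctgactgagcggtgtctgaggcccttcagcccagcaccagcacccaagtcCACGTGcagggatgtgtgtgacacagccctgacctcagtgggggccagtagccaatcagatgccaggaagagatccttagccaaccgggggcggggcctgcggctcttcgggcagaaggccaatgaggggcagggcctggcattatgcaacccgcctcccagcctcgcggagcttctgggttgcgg
Per1, second start (chr11:69099902-69100171, plus strand): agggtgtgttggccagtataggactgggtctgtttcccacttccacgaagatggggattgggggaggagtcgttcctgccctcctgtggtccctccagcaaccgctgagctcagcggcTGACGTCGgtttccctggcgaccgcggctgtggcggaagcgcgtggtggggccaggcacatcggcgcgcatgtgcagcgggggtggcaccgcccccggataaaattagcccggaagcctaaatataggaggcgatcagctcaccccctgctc
Usp2 (chr9:44084670-44084939, plus strand): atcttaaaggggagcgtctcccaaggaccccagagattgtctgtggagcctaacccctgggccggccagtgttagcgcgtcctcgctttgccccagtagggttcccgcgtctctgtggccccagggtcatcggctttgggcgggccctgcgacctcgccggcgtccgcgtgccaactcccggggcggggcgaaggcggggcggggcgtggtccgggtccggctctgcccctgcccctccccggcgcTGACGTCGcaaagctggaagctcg
Cry2 (chr2:92434050-92434319, minus strand): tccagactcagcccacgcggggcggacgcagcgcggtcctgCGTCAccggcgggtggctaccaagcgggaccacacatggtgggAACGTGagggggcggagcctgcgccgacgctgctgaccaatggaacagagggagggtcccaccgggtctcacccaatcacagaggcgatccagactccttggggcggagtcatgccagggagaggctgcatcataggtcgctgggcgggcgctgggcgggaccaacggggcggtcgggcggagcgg
Promoter windows of 300 bases were listed for 9 of the 10 genes, 12 windows in all. Per2 was not among them. The full cAMP response element TGACGTCA was found in 0 of the 12 windows and in 1.79% of all 32851 windows of the table. Its core TGACG was found in 5 of the 12 windows and in 20.8% of all windows. These belong to 4 genes, Per1 (both windows), Cry1, Cry2 and Usp2. The variant TGACGTCG, which holds that core and was searched after the sequences had been seen, was present in Per1 at −132 from the second start and in Usp2 at −4, and in 0.505% of all windows. The E-box was found in 2 of the 12 windows, in Per1 at −166 from the first start and in Cry1 (7.15% of all windows). CACGTT was found in 3 of the 12, in Cry1, Cry2 and Nr1d1 (4.68% of all windows). The D-box TTATGTAA was found in Per3 only, at 2 places (0.938% of all windows). Its other form TTACGTAA (0.119%) and the REV-ERB and ROR elements TAGGTCA (2.61%) and TGGGTCA (3.98%) were found in none of the 12 windows. Such matches describe letters and do not show binding.

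Among the measured genes, group means spanned widely different ranges. Per1 had a range of 1.99 between its lowest and highest group mean, wider than 89.2% of all genes, followed by Per2 (1.91, wider than 87.9%). Usp2 and Dbp had their highest group means at 8.69 and 7.94 and their lowest in groups with no array above background, so their ranges are not given a size or a rank. Nr1d2 spanned 0.90 and lay near the middle of all genes (47.8%). Cry2 (0.65), Nr1d1 (0.64) and Clock (0.51) spanned less, with 14.4% of genes narrower than Clock. The median SD between the arrays of a group was 0.068 to 0.194 for these 8 genes.

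**Figure D1:**
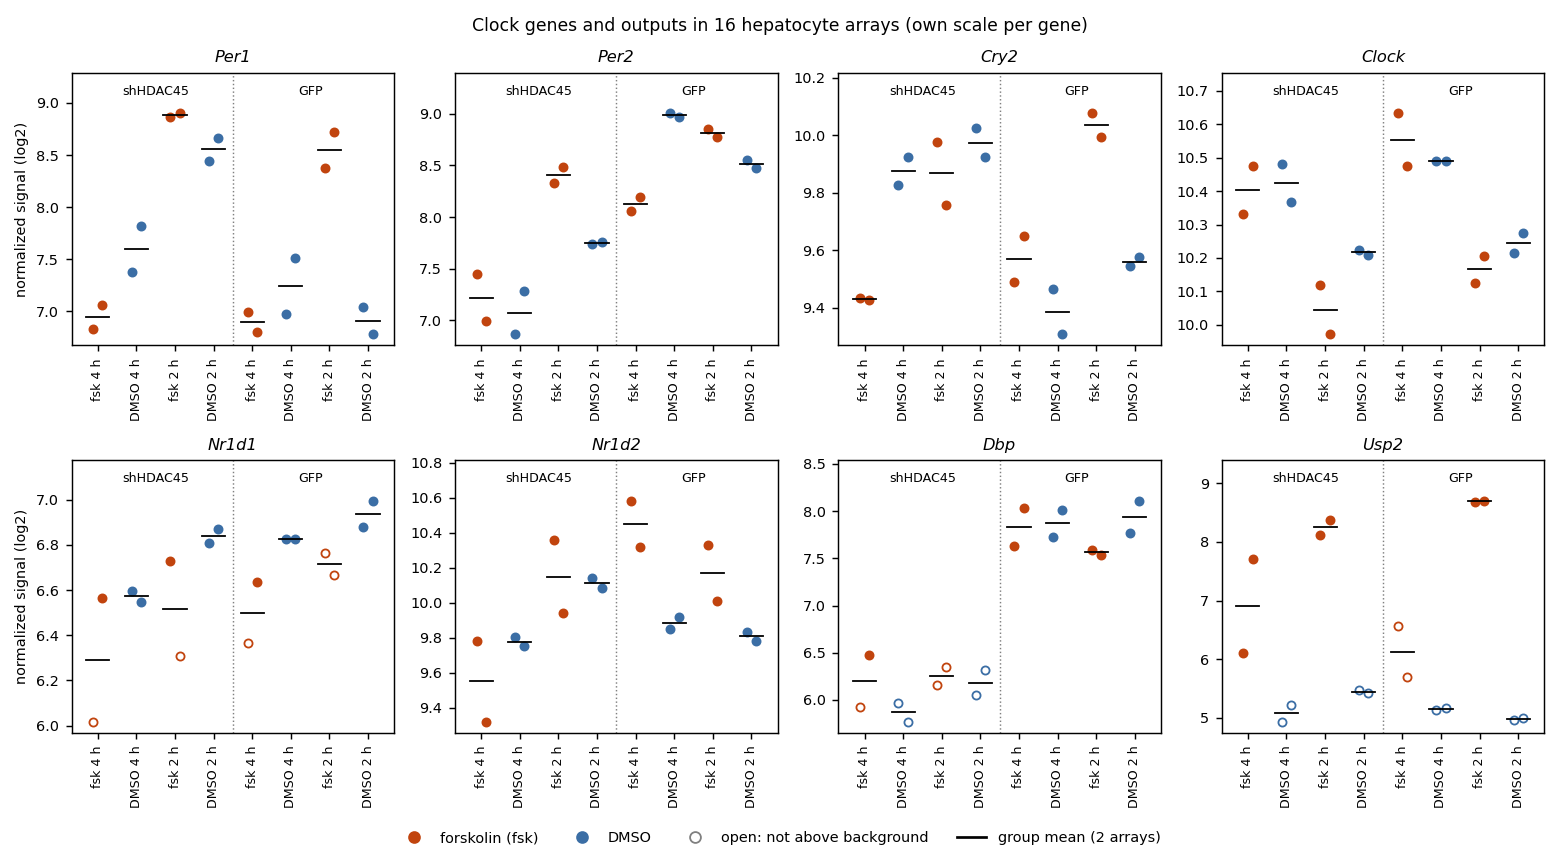
Normalized log2 signal (vertical axis, own scale per gene) of the 8 measured clock genes and outputs on each of 16 arrays, with shHDAC45 groups left of the dotted line and GFP groups right of it. Points are arrays, open where the signal was not above background, and bars are group means: Per1 is high in both shHDAC45 groups at 2 h and in forskolin-treated GFP cells at 2 h, Usp2 is high with forskolin at 2 h in both viruses, and Dbp is low in all 8 shHDAC45 arrays.

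Forskolin for 2 h in GFP cells asks which clock genes respond early to cAMP. Per1, the period gene known for rapid induction, read 8.38 and 8.72 with forskolin, against 7.04 and 6.78 with DMSO. The groups did not overlap, and Per1 rose by 1.64 (SE 0.195, 3.12-fold, adjusted p = 5e-05, limma). Usp2 read 8.68 and 8.70 with forskolin, against 4.97 and 4.99 with DMSO, where it was not well above background. It rose by at least 4.75-fold (adjusted p = 1.3e-05, limma). That bound sets the forskolin mean against the lowest detected signal of each DMSO array, or the probe's own signal where higher. The cryptochrome Cry2 read 10.08 and 9.99 with forskolin, against 9.55 and 9.58 with DMSO, a rise of 0.47 (SE 0.106, adjusted p = 0.0064, limma). Thus 3 of 8 genes rose and 0 fell, while 21.3% of all genes passed in either direction, and the median difference was 0.33 for the 8 genes and −0.01 for all genes. Usp2 was above background on 6 arrays, all with forskolin, and so counted as measured only through groups where it is high. Its place in this and the later counts of rises with forskolin is therefore tied to its rise. Per2 (0.30, SE 0.154, adjusted p = 0.19, limma) and Nr1d2 (0.36, SE 0.17, adjusted p = 0.15) did not pass. Neither did Dbp (−0.38, SE 0.196, adjusted p = 0.20), Nr1d1 (−0.22, SE 0.171, adjusted p = 0.41) or Clock (−0.08, SE 0.0993, adjusted p = 0.63). In the same comparison 4 of the 6 measured hepatocyte markers rose and 0 fell. Of the 5 Kupffer cell and macrophage markers 1 rose and 3 fell, of the 3 cholangiocyte markers 2 rose and 1 fell, of the 4 stellate cell and fibroblast markers 1 rose, and of the 5 endothelial markers 0 passed. The part of these markers in the differences described here and in the comparisons that follow was not tested. Without background correction Per1's rise was 1.03. With arrays scaled to a common median, which lowered the median of all genes to −0.26 here, Cry2 differed by 0.19 (adjusted p = 0.32, limma) and lost its call, while Clock (−0.38, adjusted p = 0.032) and Dbp (−0.65, adjusted p = 0.024, limma) passed downward.

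By 4 h in GFP cells the picture differed. Per1 read 6.99 and 6.80 with forskolin, against 6.98 and 7.52 with DMSO, and these overlapped (−0.35, SE 0.195, adjusted p = 0.19, limma). Per2, the period gene that had not passed at 2 h, read 8.06 and 8.20 with forskolin, against 9.004 and 8.97 with DMSO, and fell by 0.85 (SE 0.154, adjusted p = 0.00096, limma). Nr1d2 read 10.58 and 10.32 with forskolin, against 9.85 and 9.92 with DMSO, and rose by 0.57 (SE 0.17, adjusted p = 0.022, limma). Usp2 read 6.56 and 5.69 with forskolin, against 5.14 and 5.16 with DMSO, all not above background, and did not pass (adjusted p = 0.068, limma). It passed upward under 8 of 26 alternatives. Among these were median scaling (adjusted p = 0.048), the authors' values (adjusted p = 0.045), only the arrays compared (adjusted p = 0.042) and a variance trend (adjusted p = 0.037, limma). Here 1 of 8 genes rose and 1 fell, while 32% of all genes passed. Cry2, Clock, Nr1d1 and Dbp differed by between −0.33 and 0.18, with adjusted p of 0.17 to 0.91 (limma). Of the hepatocyte markers 3 rose and 1 fell, of the Kupffer cell and macrophage markers 1 rose and 1 fell, 1 endothelial marker rose and 1 cholangiocyte marker fell.
The call for Nr1d2 was lost under median scaling (adjusted p = 0.089, limma), and without array A of the forskolin group (0.44, adjusted p = 0.16) or array A (0.53, adjusted p = 0.097) or B (0.60, adjusted p = 0.066) of the DMSO group. Set against the 2 h DMSO arrays instead, the fall of Per2 was 0.39 in size (log2 difference −0.39, adjusted p = 0.066, limma).

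The change of the forskolin effect with time was tested directly in GFP cells. Per1's effect at 4 h was lower than that at 2 h by 1.99 (difference −1.99, SE 0.275, adjusted p = 0.00018, limma). For Usp2 the fitted difference was negative and passed (adjusted p = 0.0024, limma), but the 4 h forskolin group and both DMSO groups were below background, so it has no exact size. For Per2 it was −1.15 (SE 0.218, adjusted p = 0.0018, limma), the 4 h effect being negative and the 2 h effect positive in sign. So 3 of 8 genes passed this test, all downward, against 26.6% of all genes in either direction. Usp2 counted as measured only through forskolin arrays, among them those of 2 h where it is high. Its place in this count is therefore tied to its rise. Among the markers 1 hepatocyte gene passed upward and 3 downward, and 2 Kupffer cell and macrophage genes upward and 1 downward. An endothelial gene passed upward, and 1 stellate cell and fibroblast gene and 1 cholangiocyte gene downward. These 3 calls of clock genes held under all 25 alternatives run.

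In shHDAC45 cells the early response was read from a different starting level. Per1 read 8.87 and 8.90 with forskolin at 2 h, against 8.45 and 8.66 with DMSO, a difference of 0.33 (SE 0.195, 95% interval −0.09 to 0.75, adjusted p = 0.44, limma). Its DMSO values in these cells lay between the 2 forskolin values of GFP cells (8.38 and 8.72). Set against the 4 h DMSO arrays instead, Per1 differed by 1.29 (adjusted p = 0.00043, limma). Usp2 read 8.11 and 8.38 with forskolin, against 5.47 and 5.42 with DMSO, and rose by at least 3.44-fold (adjusted p = 0.00053, limma).
Per2 read 8.33 and 8.49 with forskolin, against 7.74 and 7.76 with DMSO, and rose by 0.66 (SE 0.154, adjusted p = 0.026, limma). That made 2 of 8 genes higher and 0 lower, against 4.8% of all genes in either direction. The other 5 genes, Cry2, Clock, Nr1d1, Nr1d2 and Dbp, differed by between −0.32 and 0.08, with adjusted p of 0.38 to 0.94 (limma), and Dbp was not above background in either group. Of the markers 1 hepatocyte and 1 Kupffer cell and macrophage gene rose and 0 fell. Per2's call was lost under median scaling (adjusted p = 0.11, limma) and without any one of the 4 arrays compared (adjusted p = 0.081 to 0.16).

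At 4 h in shHDAC45 cells, Usp2 remained higher with forskolin. It read 6.10 and 7.71 with forskolin, against 4.94 and 5.22 with DMSO, a rise of at least 1.39-fold (adjusted p = 0.0026, limma), and the forskolin arrays lay far apart. That bound uses the mean of the 2 forskolin arrays. The reading of 6.10 lay within the range of the arrays' lowest detected signals (6.04 to 6.81), so the bound rests mainly on the other array. Without array B of the forskolin group the fitted difference, which has no exact size against DMSO arrays below background, was 1.02 in place of 1.83, and still passed (adjusted p = 0.016, limma). Per1 read 6.84 and 7.06 with forskolin, against 7.38 and 7.82 with DMSO, and fell by 0.65 (SE 0.195, adjusted p = 0.021, limma). Cry2 read 9.43 on both forskolin arrays, against 9.83 and 9.92 with DMSO, and fell by 0.45 (log2 difference −0.45, SE 0.106, adjusted p = 0.006, limma). Here 1 of 8 genes rose and 2 fell, against 35.3% of all genes. Per2 overlapped between the groups (0.15, SE 0.154, adjusted p = 0.49, limma). Clock, Nr1d1, Nr1d2 and Dbp differed by between −0.28 and 0.33, with adjusted p of 0.21 to 0.90, and the DMSO arrays of Dbp were below background. Markers moved as well, with 4 of 6 hepatocyte and 4 of 5 endothelial markers higher and 0 lower. Of the 3 cholangiocyte markers 1 rose and 2 fell, and 1 Kupffer cell and macrophage marker and 1 stellate cell and fibroblast marker fell.
The calls of Per1 (adjusted p = 0.078) and Cry2 (adjusted p = 0.064, limma) were lost under median scaling, and that of Per1 also without array A of the forskolin group (−0.54, adjusted p = 0.13) or array B of the DMSO group (−0.43, adjusted p = 0.18). With the DMSO arrays of 2 h in place of those of 4 h, Per2 differed by −0.53 (adjusted p = 0.016, limma) and so reversed in sign.

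**Figure D2:**
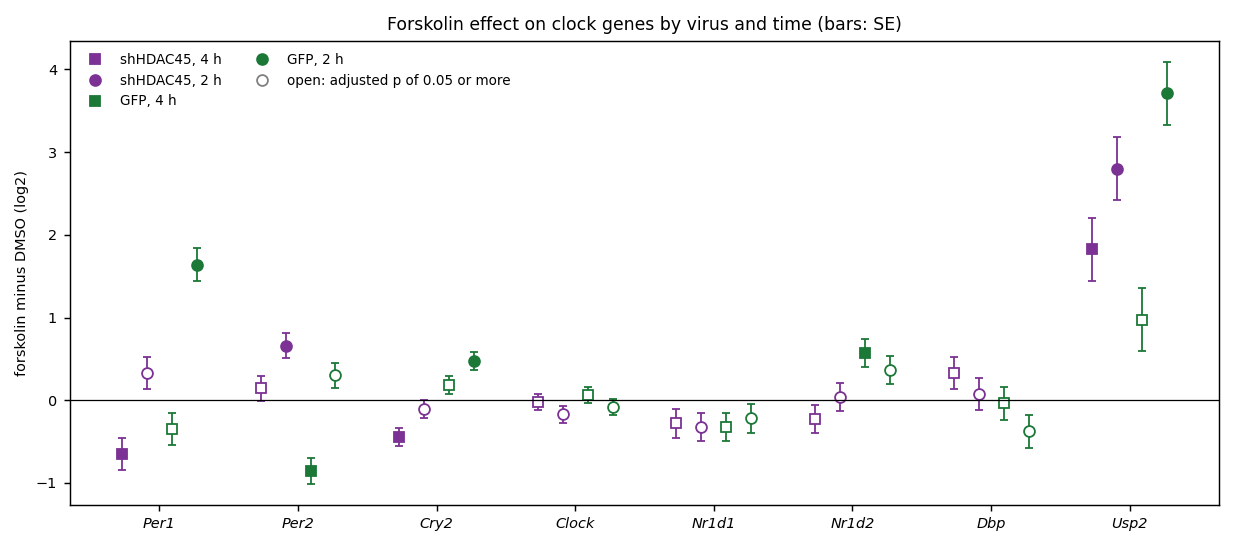
Forskolin minus DMSO (log2, vertical axis) for each of the 8 genes in shHDAC45 and GFP cells at 4 h and 2 h, with SE bars. Filled symbols passed adjusted p under 0.05. Usp2 is the highest at 2 h with both viruses, where its DMSO arrays were not above background, so that its points are fitted values with no exact size (rises of at least 3.44-fold in shHDAC45 cells and 4.75-fold in GFP cells), and Per1 stands at 1.64 in GFP cells at 2 h.

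Whether forskolin acted differently under the 2 viruses was tested as an interaction. At 2 h the forskolin effect on Per1 was 0.33 in shHDAC45 cells and 1.64 in GFP cells, a difference of −1.31 (SE 0.275, adjusted p = 0.012, limma), among the 39 most negative of all genes. For Cry2 the effect was −0.11 in shHDAC45 cells and 0.47 in GFP cells (difference −0.58, SE 0.15, adjusted p = 0.039, limma). Usp2 did not pass (adjusted p = 0.39, limma), and passed with only the arrays compared (adjusted p = 0.021). Its DMSO arrays at 2 h were below background with both viruses, so the difference of its effects has no exact size. At 2 h 2 of 8 genes passed, both downward, against 5.96% of all genes.
At 4 h the effect on Per2 was 0.15 in shHDAC45 cells and −0.85 in GFP cells (difference 1.00, SE 0.218, adjusted p = 0.013, limma). That on Cry2 was −0.45 in shHDAC45 cells and 0.18 in GFP cells (difference −0.63, SE 0.15, adjusted p = 0.022, limma). Thus 1 gene passed upward and 1 downward at 4 h, against 8.57% of all genes. Nr1d2 did not pass (−0.79, SE 0.24, adjusted p = 0.062, limma), and did without background correction (−0.71, adjusted p = 0.022) or with the authors' values (−0.74, adjusted p = 0.031). Among the markers at 2 h, 1 hepatocyte gene and 1 stellate cell and fibroblast gene passed downward, 2 Kupffer cell and macrophage genes upward, and cholangiocyte genes 1 each way. At 4 h 1 hepatocyte gene passed upward, and of the cholangiocyte genes 1 upward and 2 downward.
Per1's call at 2 h was lost without array B of the GFP forskolin group (−1.14, adjusted p = 0.056), the GFP DMSO group (−1.18, adjusted p = 0.053) or the shHDAC45 DMSO group (−1.20, adjusted p = 0.056). Cry2's call was lost under 13 of 25 alternatives at 2 h and 7 of 25 at 4 h, and Per2's at 4 h under 4 of 25 (adjusted p = 0.051 to 0.055), each with its sign kept. Usp2, with its DMSO arrays below background, did not pass at 4 h (adjusted p = 0.38), and passed upward without array A of the shHDAC45 forskolin group (adjusted p = 0.015, limma).

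The shRNA virus was then set against GFP in each condition. Dbp was lower with the shRNA virus in all 4 conditions. Over the 8 shHDAC45 arrays it ran from 5.77 through a median of 6.11 to 6.48 and was above background on 1 of them, and over the 8 GFP arrays from 7.54 through 7.75 to 8.11, above background on 8. The 2 sets of arrays did not overlap. In DMSO at 2 h Dbp read 6.05 and 6.31 in shHDAC45 cells, against 7.77 and 8.11 in GFP cells, a fall of at least 2.78-fold (adjusted p = 9.4e-06, limma). In DMSO at 4 h it was lower by at least 2.71-fold (adjusted p = 2.5e-06), and with forskolin at 2 h by at least 2.11-fold (adjusted p = 0.00012, limma). With forskolin at 4 h, where only 1 of the 2 shHDAC45 arrays was above background, the fitted difference was −1.63 (SE 0.196, adjusted p = 1.3e-05, limma). It was −0.83 without background correction, so its size is uncertain as well. The average over the 4 conditions passed downward (adjusted p = 4.8e-09, limma). Its fitted size of −1.67 rests on shHDAC45 arrays below background, and was −1.07 with the authors' normalized values and −0.84 without background correction. With the authors' values Dbp differed by −1.15 and −1.26 in DMSO at 2 h and 4 h and by −0.82 and −1.05 with forskolin.

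Per2 was the other gene that was lower with the shRNA virus throughout. Its lowest and highest arrays were 6.87 and 8.49 in shHDAC45 cells, with a median of 7.59, and 8.06 and 9.004 in GFP cells, with a median of 8.66. In DMSO at 4 h it read 6.87 and 7.29 in shHDAC45 cells, against 9.004 and 8.97 in GFP cells, a difference of −1.91 (SE 0.154, 3.75-fold lower, adjusted p = 4.1e-07, limma). It differed by −0.77 in DMSO at 2 h (SE 0.154, adjusted p = 0.0011) and by −0.91 with forskolin at 4 h (SE 0.154, adjusted p = 0.00024, limma). With forskolin at 2 h the difference was −0.41 (SE 0.154, adjusted p = 0.043, limma), and this call was lost under 13 of 25 alternatives. These included leaving out either array of either 2 h forskolin group (adjusted p = 0.063 to 0.20, limma). Averaged over the 4 conditions Per2 fell by 1.00 (SE 0.0771, adjusted p = 7.6e-08, limma).

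Per1 differed in the other direction, and passed in DMSO at 2 h. In DMSO at 2 h it read 8.45 and 8.66 in shHDAC45 cells, against 7.04 and 6.78 in GFP cells, a rise of 1.64 (SE 0.195, 3.13-fold, adjusted p = 1.6e-05, limma). In DMSO at 4 h it read 7.38 and 7.82 in shHDAC45 cells, against 6.98 and 7.52 in GFP cells, and these overlapped (0.35, SE 0.195, adjusted p = 0.15). Without array B of the GFP group that difference was 0.61 and passed (adjusted p = 0.031, limma). With forskolin the differences were 0.33 at 2 h (adjusted p = 0.17) and 0.05 at 4 h (adjusted p = 0.84, limma). Cry2 was also higher with the shRNA virus in DMSO. It rose by 0.41 at 2 h (9.92 to 10.03 in shHDAC45 cells, 9.55 to 9.58 in GFP cells, SE 0.106, adjusted p = 0.0057, limma) and by 0.49 at 4 h (9.83 to 9.92 in shHDAC45 cells, 9.31 to 9.46 in GFP cells, SE 0.106, adjusted p = 0.0018, limma). With forskolin it differed by −0.17 at 2 h (adjusted p = 0.21) and −0.14 at 4 h (adjusted p = 0.27, limma).
Nr1d2 fell in 1 of the 4 conditions, forskolin at 4 h, with 9.78 and 9.32 in shHDAC45 cells, against 10.58 and 10.32 in GFP cells (−0.90, SE 0.17, adjusted p = 0.00055, limma). Clock and the main probe of Nr1d1 passed in none of the 4 (adjusted p = 0.21 to 0.84 and 0.24 to 0.66), and neither did Usp2 (adjusted p = 0.094 to 0.90, limma). With only the arrays compared, Usp2 passed at 2 h, upward in DMSO (adjusted p = 0.015), where it was below background with both viruses, and downward with forskolin (adjusted p = 0.04, limma). With forskolin at 4 h, where its GFP arrays were below background, Usp2 passed upward without array A of the GFP group (adjusted p = 0.035) or of the shHDAC45 group (adjusted p = 0.00041), and under median scaling (adjusted p = 0.026, limma).

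In counts, 2 of 8 genes were higher and 2 lower in DMSO at 2 h, where 50% of all genes passed, and 1 higher and 2 lower in DMSO at 4 h (52.7% of all genes). With forskolin 0 were higher and 2 lower at 2 h (50.1% of all genes), and 0 higher and 3 lower at 4 h (59.1%). On the average of the 4 conditions Per1 (0.59, SE 0.0974, adjusted p = 1e-04) and Cry2 (0.15, SE 0.0531, adjusted p = 0.022, limma) were higher, and Per2 and Dbp lower, 4 of 8 genes where 73.7% of all genes passed. The share of clock genes called was at or below that of all genes in each of these 5 comparisons. Dbp was above background on 8 GFP arrays and 1 shHDAC45 array, and so counted as measured only through the virus where it is high. Its place among the lower genes in these counts is therefore tied to its difference. Cry2's call on the average was lost without array A of the GFP forskolin group at 4 h or the shHDAC45 forskolin group at 2 h, or array B of either DMSO group at 4 h (adjusted p = 0.05 to 0.059), and its call in DMSO at 2 h under median scaling (adjusted p = 0.067, limma).
Marker genes of liver cell types moved with the virus as well. On the average of the 4 conditions 6 of 6 measured hepatocyte markers fell (median −1.68) and 3 of 3 measured cholangiocyte markers fell (median −1.76). Of 5 measured endothelial markers 5 rose (median 0.59), and of 4 measured stellate cell and fibroblast markers 4 rose (median 0.70). Of 5 measured Kupffer cell and macrophage markers 1 rose and 3 fell, and 0 of 3 lymphocyte markers were measured. The summed signal of the endothelial markers was 1258 to 2122 in shHDAC45 arrays and 870.8 to 1262 in GFP arrays. That of the stellate and fibroblast markers was 9127 to 10880 in shHDAC45 arrays and 6792 to 8352 in GFP arrays, and that of the cholangiocyte markers 983.9 to 1391 in shHDAC45 arrays and 2784 to 6778 in GFP arrays. For the Kupffer cell and macrophage markers it was 2593 to 4758 in shHDAC45 arrays and 3393 to 4631 in GFP arrays. Clec4f, Kdr, Lrat, Des, Pdgfrb and Epcam were not above background on any array. The part of these shifts in the lower Dbp and Per2 signals was not tested.

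**Figure D3:**
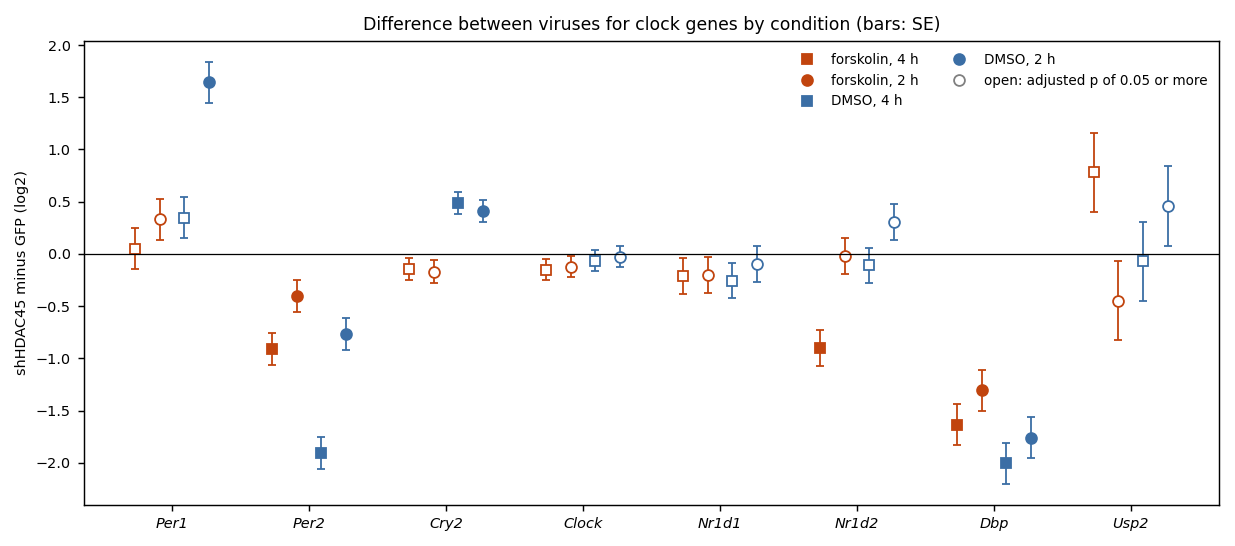
shHDAC45 minus GFP (log2, vertical axis) for each of the 8 genes with forskolin or DMSO at 4 h and 2 h, with SE bars. Filled symbols passed adjusted p under 0.05. Dbp, whose shHDAC45 arrays were below background but for 1, has fitted values between −2.002 and −1.30, Per2 lies between −1.91 and −0.41 in the 4 conditions, and Per1 stands at 1.64 in DMSO at 2 h.

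Time in culture was compared directly, since 4 h and 2 h groups also differ in DMSO. In GFP cells under DMSO 0 of 8 genes passed in limma, against 11.7% of all genes, while 2 had an unadjusted p under 0.05. These were Per2, 0.47 higher at 4 h (9.004 and 8.97, against 8.55 and 8.48 at 2 h, SE 0.154, adjusted p = 0.070), and Clock, 0.24 higher (SE 0.0993, adjusted p = 0.15, limma). In shHDAC45 cells under DMSO 2 of 8 genes fell, against 8.64% of all genes. Per1 read 7.38 and 7.82 at 4 h, against 8.45 and 8.66 at 2 h (−0.96, SE 0.195, adjusted p = 0.008, limma), the 47th lowest difference of all genes. Per2 read 6.87 and 7.29 at 4 h, against 7.74 and 7.76 at 2 h (−0.67, SE 0.154, adjusted p = 0.016, limma). Hepatocyte markers moved in opposite directions here, with 4 of 6 higher and 0 lower at 4 h in GFP cells, and 0 higher and 4 lower in shHDAC45 cells. Of the Kupffer cell and macrophage markers 1 was higher and 3 lower in GFP cells, and 3 higher and 0 lower in shHDAC45 cells, where 2 cholangiocyte markers were also lower. In GFP cells 1 endothelial marker was lower and 1 cholangiocyte marker higher.
Per2's call in shHDAC45 cells was lost under median scaling (adjusted p = 0.056) and with only the arrays compared (adjusted p = 0.074, limma). Both calls were lost when single arrays were left out. Without array B of the 2 h group adjusted p was 0.069 for Per1 and 0.079 for Per2, and without array A of the 4 h group 0.094 for Per1 and 0.16 for Per2 (limma). Without array A of the 2 h group it was 0.078 for Per2. In GFP cells Per2 passed without any one of the 4 h shHDAC45 arrays, which enter only the shared variance (adjusted p = 0.038 to 0.044, limma).

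With forskolin the fall between the times covered more genes. In GFP cells at 4 h, against 2 h, Per1 fell by 1.65 (SE 0.195, adjusted p = 3.5e-05), Per2 by 0.69 (SE 0.154, adjusted p = 0.0037) and Cry2 by 0.47 (SE 0.106, adjusted p = 0.004, limma). Usp2 was lower at 4 h by at least 4.56-fold (adjusted p = 2e-04, limma). Clock, the activator of the loop, read 10.63 and 10.48 at 4 h, against 10.13 and 10.21 at 2 h, and rose by 0.39 (SE 0.0993, adjusted p = 0.0082, limma). Under DMSO Clock differed by 0.24 between the times in GFP cells (adjusted p = 0.15) and by 0.21 in shHDAC45 cells (adjusted p = 0.26, limma). Its forskolin effect in GFP cells did not pass a change with time (0.14, adjusted p = 0.5, limma). In these GFP cells 1 of 8 genes was thus higher and 4 lower, against 38.1% of all genes. The place of Usp2 in this count is tied to its high signal at 2 h, through which it counted as measured. Of the markers 2 hepatocyte genes were higher and 1 lower, and Kupffer cell and macrophage and cholangiocyte genes were 1 higher and 1 lower each. An endothelial gene was higher and 1 stellate cell and fibroblast gene lower. Under median scaling the calls of Per2 (−0.50, adjusted p = 0.056) and Cry2 (−0.34, adjusted p = 0.076, limma) were lost. Clock's call was lost with only the arrays compared (adjusted p = 0.063), and without array A of the 2 h group (0.35, adjusted p = 0.056) or of the 4 h group (0.31, adjusted p = 0.071, limma).
In shHDAC45 cells Per1 fell by 1.94 (SE 0.195, adjusted p = 7.8e-06), Per2 by 1.19 (SE 0.154, adjusted p = 6.2e-05) and Cry2 by 0.44 (SE 0.106, adjusted p = 0.0053, limma). Nr1d2 fell by 0.60 (SE 0.17, adjusted p = 0.013) and Usp2 by 1.34 (SE 0.381, adjusted p = 0.013), and Clock rose by 0.36 (SE 0.0993, adjusted p = 0.012, limma). That is 1 of 8 genes higher and 5 lower, against 41.8% of all genes, and the place of Usp2 is again tied to its high forskolin signal. Of the markers 1 of 6 hepatocyte genes was higher and 4 lower, 4 of 5 endothelial genes were higher and 0 lower, and 2 of 3 cholangiocyte genes were lower. Of 5 Kupffer cell and macrophage genes 3 were higher and 2 lower, and 1 of 4 stellate cell and fibroblast genes was lower. Under median scaling the calls of Cry2 (−0.31, adjusted p = 0.1) and Nr1d2 (−0.48, adjusted p = 0.052, limma) were lost. Without array A of the 4 h group the fall of Usp2 was 0.54 (log2 difference −0.54, adjusted p = 0.14, limma), and without array B it was 2.14 (−2.14, adjusted p = 0.00013). Without array B of the 2 h group Usp2 (−1.21, adjusted p = 0.076) and Clock (0.28, adjusted p = 0.097, limma) lost their calls. Nr1d2's call was also lost without array A of the 2 h group (−0.39, adjusted p = 0.14) or array B of the 4 h group (−0.37, adjusted p = 0.15). Cry2's was also lost without array A of the 2 h group (−0.33, adjusted p = 0.063), and Clock's also without array B of the 4 h group (0.29, adjusted p = 0.088, limma).

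Nr1d1 was the gene whose probes disagreed in part of the comparisons. Its main probe, ILMN_2749669, was above background on 11 of 16 arrays and ran from 6.02 to 6.87 in shHDAC45 arrays and from 6.36 to 6.996 in GFP arrays. It passed in 0 of the 16 comparisons (limma), and with an unadjusted p under 0.05 in 1, the average difference between viruses (−0.19, SE 0.0857, adjusted p = 0.062). The probes ILMN_1229091 and ILMN_2710551 were each above background on 4 arrays. In the average difference between viruses the fitted value of the first of these was −0.34 (SE 0.0911, adjusted p = 0.0042) and that of the second 0.52 (SE 0.111, adjusted p = 0.00094, limma), sizes that rest mostly on arrays below background. ILMN_1229091 was also lower with forskolin in GFP cells at 2 h (adjusted p = 0.013, limma), where the forskolin arrays were below background and ILMN_2710551 did not pass (adjusted p = 0.75). The average difference of the main probe passed without array B of the shHDAC45 forskolin group at 4 h (−0.26, adjusted p = 0.0074), array A of that group at 2 h (−0.24, adjusted p = 0.019) or array A of the GFP forskolin group at 4 h (−0.22, adjusted p = 0.041, limma). The probes thus give no common direction for Nr1d1 in these comparisons. With forskolin at 4 h all were negative, in GFP cells (main probe −0.33, ILMN_1229091 −0.56, ILMN_2710551 −0.54) and in shHDAC45 cells (−0.28, −0.38 and −0.33). Of these only ILMN_1229091 in GFP cells passed (adjusted p = 0.033, limma). All were also negative for 4 h against 2 h with forskolin in each virus. There ILMN_2710551 passed in GFP cells (adjusted p = 0.028) and ILMN_1229091 in shHDAC45 cells (adjusted p = 0.0025, limma). The further probes of Per2 (1), Clock (2) and Usp2 (2) were not above background on any array, and that of Nr1d2 on 1 array.

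**Figure D4:**
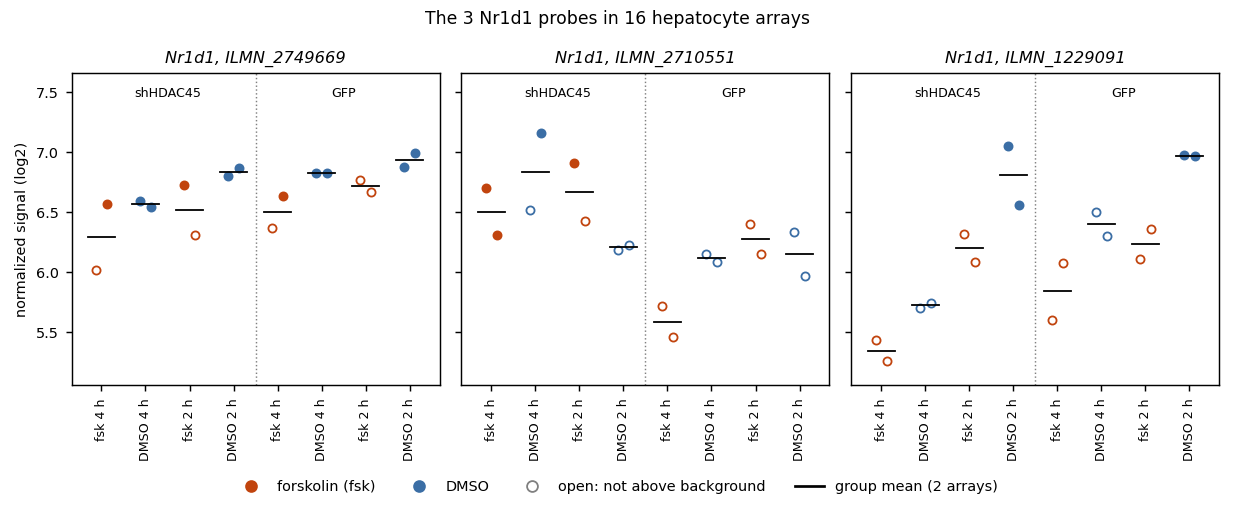
Normalized log2 signal of the 3 Nr1d1 probes (common vertical axis) on 16 arrays, shHDAC45 groups left of the dotted line and GFP groups right of it. Open points are not above background. ILMN_2710551 has its highest group mean in shHDAC45 cells with DMSO at 4 h, and ILMN_1229091 is above background in DMSO at 2 h with both viruses.

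The rest of the clock circuit was read from 3 lists of other genes, chosen with earlier results of these data known. Of 6 genes of the positive arm and ROR receptors 3 were measured. Arntl, partner of Clock, read 9.002 and 8.88 with forskolin at 4 h in GFP cells, against 7.24 and 7.10 with DMSO, and rose by 1.77 (SE 0.219, adjusted p = 4.5e-05, limma). In shHDAC45 cells it rose by 0.99 (SE 0.219, adjusted p = 0.0038, limma), and at 2 h it passed with neither virus. The ROR gene Rora rose in GFP cells at 2 h (1.33, SE 0.137, adjusted p = 1.2e-05) and at 4 h (1.60, SE 0.137, adjusted p = 1.8e-06, limma). Its forskolin effect was smaller in shHDAC45 cells than in GFP cells, by 0.97 at 2 h (difference −0.97, SE 0.193, adjusted p = 0.0092) and 0.87 at 4 h (difference −0.87, SE 0.193, adjusted p = 0.015, limma). For Rorb the fitted difference between the viruses at 4 h had the opposite sign. In shHDAC45 cells at 4 h it read 9.66 and 9.53 with forskolin, against 5.91 and 6.04 with DMSO, a rise of at least 8.97-fold (adjusted p = 4.4e-10, limma). In GFP cells at 4 h it rose by at least 1.24-fold (adjusted p = 8.5e-07). The difference between these effects passed (adjusted p = 1.7e-06, limma) but has no exact size, since Rorb was below background on all DMSO arrays. Between the forskolin arrays at 4 h, all above background, Rorb was higher in shHDAC45 cells than in GFP cells by 2.65 (SE 0.109, adjusted p = 7.6e-10, limma). All 3 genes thus rose with forskolin at 4 h in each virus, against 35.3% of all genes called in shHDAC45 cells and 32% in GFP cells. Rorb was above background on forskolin arrays only and counted as measured through them, so its place in this count is tied to its rise.

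Of 10 other repressors, PAR bZIP factors and outputs 4 were measured. Bhlhe40, a bHLH repressor of the clock also called DEC1, read 13.90 and 13.56 with forskolin at 2 h in GFP cells, against 11.69 and 11.63 with DMSO, and rose by 2.06 (SE 0.114, adjusted p = 2.8e-08, limma). In shHDAC45 cells it rose by 1.93 (SE 0.114, adjusted p = 1.9e-07). Noct, a rhythmic gene also called nocturnin, rose by 1.38 in GFP cells (SE 0.133, adjusted p = 6.9e-06) and by 1.36 in shHDAC45 cells (SE 0.133, adjusted p = 2.7e-05, limma) at 2 h. At 4 h in GFP cells Noct fell by 0.69 (SE 0.133, adjusted p = 0.0015). Both lost forskolin effect between 2 h and 4 h in GFP cells, by 2.07 each (differences −2.07, SE 0.161 and 0.188, adjusted p = 1.9e-06 and 6.6e-06, limma). Tef, a PAR bZIP relative of Dbp, was lower with the shRNA virus in 4 of 4 conditions (average −0.83, SE 0.0575, adjusted p = 2.4e-08, limma), and 0 of the 4 genes were higher and 3 lower on that average, against 73.7% of all genes called. Nampt, which makes a precursor of NAD, was at or near background and fell by at least 1.08-fold with forskolin at 2 h in GFP cells (adjusted p = 0.028, limma).
Of 8 clock kinases and ubiquitin ligase parts 4 were measured. With forskolin 0 passed at 2 h in either virus (limma), against 4.8% of all genes in shHDAC45 cells and 21.3% in GFP cells. At 4 h in GFP cells Gsk3b (0.62, SE 0.172, adjusted p = 0.014) and Csnk1d (0.37, SE 0.124, adjusted p = 0.037) rose and Csnk1e fell by 0.57 (SE 0.095, adjusted p = 0.00054, limma). Csnk1e, a casein kinase that acts on PER proteins, was also lower with the shRNA virus on average (−0.48, SE 0.0475, adjusted p = 9.8e-07, limma).

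**Figure D5:**
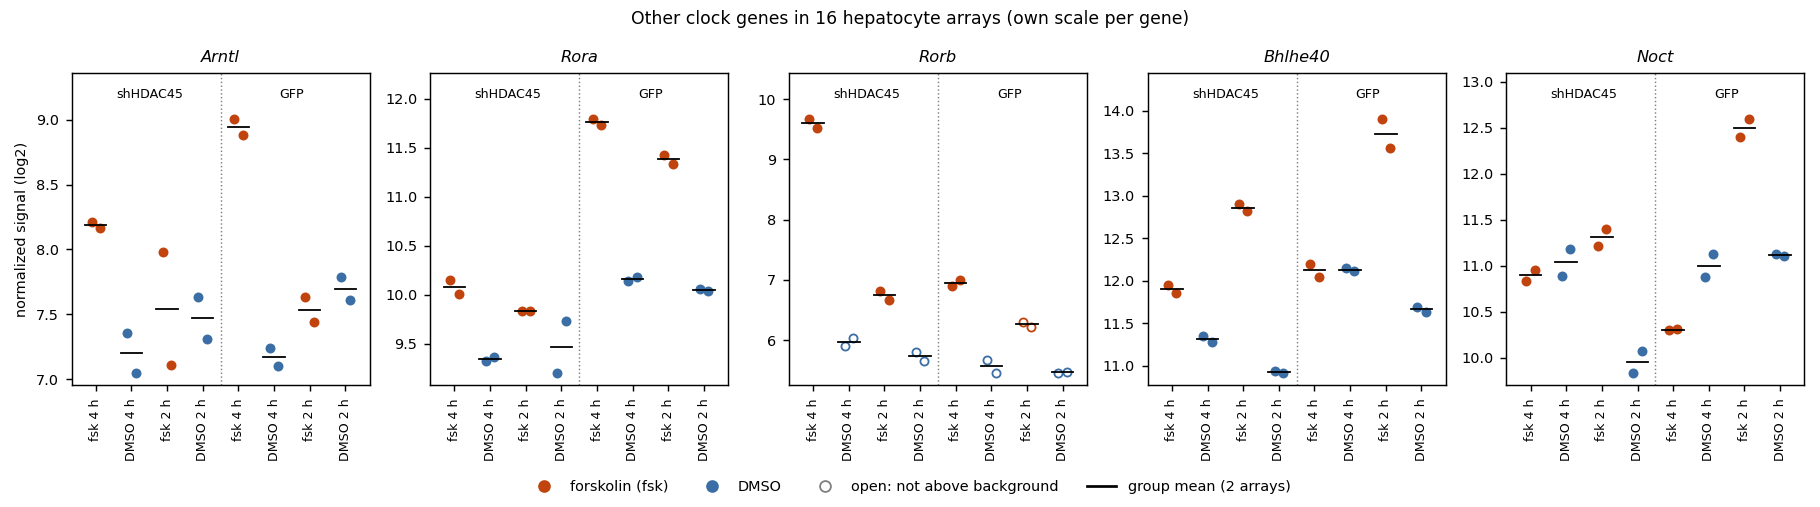
Normalized log2 signal (vertical axis, own scale per gene) of Arntl, Rora, Rorb, Bhlhe40 and Noct on 16 arrays, shHDAC45 groups left of the dotted line and GFP groups right of it. Open points are not above background. Arntl is highest with forskolin at 4 h in both viruses, Rorb with forskolin at 4 h in shHDAC45 cells, and Bhlhe40 with forskolin at 2 h.

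As a yardstick for the forskolin response, 8 of 10 known early cAMP genes other than Per1 were measured. At 2 h 6 rose and 0 fell in shHDAC45 cells, where 4.8% of all genes were called, and 7 rose and 0 fell in GFP cells, where 21.3% were. Crem, a cAMP-responsive gene of the CREB family above background in all these groups, rose by 3.28 in shHDAC45 cells (adjusted p = 1.3e-08) and by 3.42 in GFP cells (adjusted p = 1.8e-09, limma). Several others were below background in DMSO, so their sizes are not given, and such genes could count as measured through their forskolin arrays. The list holds genes known to rise with cAMP and was chosen with earlier results of these data known. Its counts of rises therefore describe the response and do not test it. At 2 h the fitted forskolin effect was smaller in shHDAC45 cells than in GFP cells for 5 of 8 of them and larger for 0. Of all genes 5.96% were called in either direction. Where DMSO arrays were below background these effects have no exact size, so this count is a description as well. The same test at 4 h passed downward for 2 of 8 and upward for 0, against 8.57% of all genes. In DMSO at 2 h 3 of 8 were higher with the shRNA virus and 0 lower, against 50% of all genes. At 4 h 7 of 8 rose with each virus, against 35.3% of all genes in shHDAC45 cells and 32% in GFP cells.

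Patterns across the 16 arrays were described by Pearson correlation of log2 signals, with no test, since arrays share groups and normalization, and Usp2 and Dbp were below background on part of the arrays. The genes most like Usp2 were Nr4a2 (r = 0.95), Enc1 (0.944) and Sik1 (0.941), of which Nr4a2 and Sik1 are on the list of early cAMP genes. For Dbp they were Sdhc (0.977), Sh3bgrl (0.974) and Cd1d1 (0.974), for Per2 Plin2 (0.948), Fhit (0.939) and Acot2 (0.938), and for Per1 Dmrta2 (0.934), Furin (0.927) and Mrgprb3 (0.924). Clock was most like Nfya (0.915), Zfp397 (0.908) and Mapk9 (0.885). Nr1d1 was most like Btd (0.868), Fchsd1 (0.825) and Rab11a (0.825), Nr1d2 like Coq7 (0.853), Mvb12a (0.821) and Msrb1 (0.808), and Cry2 like Plppr2 (0.844), Bsg (0.839) and Pptc7 (0.835). Among the clock genes themselves Per1 went with Cry2 (0.78) and against Clock (−0.741), and Per2 went with Dbp (0.74). Per1 and Per2 hardly went together over the same arrays (0.163).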

How the data were processed

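RNA of 16 samples was hybridised to Illumina bead arrays, 1 array each. The authors deposited probe intensities, exported with GenomeStudio per the submitters' processing notes (version not given in the sources used here), with a detection p-value per probe and array as deposited by the authors. Their separately normalized intensity values served as an alternative. The summary intensities were corrected by normexp with the background inferred from their detection p-values, quantile normalized and put on a log2 scale with limma 3.58.1 (neqc, offset 16) in R 4.3.3. Of 24613 probes 20984 had 1 gene symbol, 1 had several and 3628 had none. A probe needed a detection p-value under 0.01 on 2 arrays, and the brightest such probe stood for its gene, which gave 7746 genes. A single limma fit over all 8 groups (8 residual and 4.6 prior degrees of freedom) gave 16 comparisons. Letters A and B are not tied to the labels' replicate numbers. The A minus B differences of groups correlated at over 0.1 in 25 of 28 pairs of groups (0.0491 to 0.307, median 0.224). Since the letters are not tied to replicates, no block was used in the main fit, and a block by letter was run as an alternative. The code was tested on simulated data.

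All 10 genes were named, with the 3 genes most like each measured one. The genes and lists were chosen with earlier results of these data known. Alternatives were median scaling, raw intensities with an offset of 50 and no background correction, the authors' values, no filter or 4 arrays, every probe, only the arrays compared, a variance trend, a replicate block, DMSO arrays of the other time and leaving out each array. The motif TGACGTCG was added after the sequences had been seen.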

Additional observations from a re-analysis of the deposited data

Results flagged for a closer look

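Of the comparisons of forskolin effects between groups, 7 values passed the test of the difference itself (limma, adjusted p under 0.05). Between 4 h and 2 h in GFP cells, the forskolin effect differed by −1.991 for Per1 (−0.35 at 4 h, 1.64 at 2 h), by −1.154 for Per2 (−0.85 at 4 h, 0.30 at 2 h) and, as fitted, by −2.735 for Usp2. The Usp2 value has no exact size, since both DMSO groups and the 4 h forskolin group were below background, and it was −1.57 without background correction.

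Between shHDAC45 and GFP cells at 2 h, it differed by −1.311 for Per1 (0.33 in shHDAC45 cells, 1.64 in GFP cells) and by −0.5822 for Cry2 (−0.11 in shHDAC45 cells, 0.47 in GFP cells). At 4 h it differed by 0.9996 for Per2 (0.15 in shHDAC45 cells, −0.85 in GFP cells) and by −0.628 for Cry2 (−0.45 in shHDAC45 cells, 0.18 in GFP cells).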

How the results depend on the processing

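Of 46 called values of single genes, 24 kept their call under all alternatives run and 22 lost it under at least 1, and in 1156 of 1156 refits of called values the sign was kept. Over all 3224 refits 81 lost a call, 52 gained one and 1 reversed. That was Per2 with forskolin at 4 h in shHDAC45 cells, −0.5282 with the 2 h DMSO arrays (adjusted p = 0.016, limma) in place of 0.15. Counts of genes called moved as follows. Under median scaling they were 1 for forskolin in shHDAC45 cells at 2 h (in place of 2) and at 4 h (3), 1 between viruses with forskolin at 2 h (2), 1 for time under DMSO in shHDAC45 cells (2), 3 for time with forskolin in GFP cells (5), and 1 for the difference of forskolin effects between viruses at 2 h (2) and at 4 h (2). Time under DMSO in GFP cells gave 1 in place of 0 without background correction and with the authors' values. Between viruses with forskolin at 2 h the count was 1 with no filter. With only the arrays compared it was 1 for time under DMSO in shHDAC45 cells and 0 for the virus difference of forskolin effects at 4 h. With DMSO arrays of the other time, forskolin in shHDAC45 cells gave 4 at 2 h and 6 at 4 h. The cause of these moves was not tested. When each array was left out, counts ran from 1 to 3 for forskolin in GFP cells at 4 h, 1 to 2 and 2 to 4 in shHDAC45 cells at 2 h and 4 h, and 3 to 3 in GFP cells at 2 h. Between viruses they ran from 4 to 4 and 3 to 4 in DMSO at 2 h and 4 h, 1 to 2 and 3 to 4 with forskolin, and 3 to 6 on average. For time they ran from 0 to 1 in GFP and 0 to 2 in shHDAC45 cells under DMSO, and 4 to 5 and 4 to 6 with forskolin. For differences of forskolin effects they ran from 3 to 3 between times, and 0 to 2 and 1 to 3 between viruses at 2 h and 4 h. A replicate block by column letter lost no call and added 2, Nr1d2 on average between viruses (−0.18, adjusted p = 0.024) and its virus difference of forskolin effects at 4 h (−0.79, adjusted p = 0.017, limma).

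Without background correction 22 called differences shrank by over 1.5 times, among them Usp2 with forskolin at 2 h in GFP cells (1.96) and Dbp between viruses in DMSO at 4 h (−0.98), so sizes near background are uncertain. Median scaling moved the median of all genes to −0.259 for forskolin at 2 h in GFP cells, to 0.166 and 0.15 between viruses with forskolin at 2 h and 4 h, to 0.121 for time with forskolin in shHDAC45 cells, and to 0.18, 0.211 and 0.155 for the differences of effects between times and between viruses at 2 h and 4 h. The share of called genes that were higher became 13.9% (49.5% after quantile normalization) and 30.7% (44.8%) for forskolin in GFP cells at 2 h and 4 h, and 67.3% (50.7%) and 65.8% (50.9%) between viruses with forskolin. For time it became 35.3% (51.6%) under DMSO in GFP cells, and with forskolin 63.7% (50%) in GFP and 63.9% (50.6%) in shHDAC45 cells. For the differences of effects it became 66% (47.3%), 82.7% (52.4%) and 78% (56%).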
